A study of Mus musculus with 8 samples.

Results

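Macrophages given IFN-gamma and LPS were compared with untreated macrophages across all genes that the arrays could name. The comparison rests on 4 of the 8 microarrays of the series, 2 of mouse bone marrow-derived macrophages left untreated and 2 of such cells given both agents for 6 h. Members are all probe sets (groups of array probes read as 1 value) with exactly 1 gene symbol, 1 per gene, namely the one with the highest mean over the 8 arrays. That gave 19938 genes from 35556 probe sets. The remaining 4 arrays hold cells given IL-4 and IL-13, or LPS with IL-4 and IL-13, 2 arrays each and also for 6 h, and the latter group is used below as the other LPS treatment. The stated aim of the series was to describe the activation state that each treatment gave. Each array is labelled as a sample of its own, but the labels do not tie it to a culture or animal. The p-values therefore reflect the spread among these arrays alone, and that spread may be technical. Mouse strain, sex and age, the doses and the growth of the macrophages from marrow have no entry in the labels used here. No group received IFN-gamma alone or LPS alone, so the parts of the response that belong to each agent cannot be told apart. In RNA from bulk cells, more cells of a type and more RNA per cell cannot be told apart either.

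Bone marrow-derived macrophages are phagocytes grown in culture from marrow precursors. IFN-gamma binds a receptor that activates the kinases JAK1 and JAK2 and, through them, STAT transcription factors that act at GAS elements and induce the factor IRF1. LPS, from the outer membrane of Gram-negative bacteria, is sensed by TLR4 with MD-2 and CD14, which activates NF-kB and AP-1 through the adaptor MyD88, and IRF3 and interferon-beta through the adaptor TRIF. Secreted interferon-beta then acts back on the cells through ISRE elements, and the combination is the classic stimulus for macrophages that kill microbes, present antigen and secrete inflammatory cytokines.

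The 4 arrays showed the markers of macrophages in both groups. Over 12 macrophage markers the mean log2 signal was 11.84 and 11.83 on the untreated arrays and 11.73 on both IFN-gamma/LPS arrays. Of these 12 genes 7 were called lower and 3 higher, with changes from -1.09 to 1.44 and a median of -0.26. The small shift of the mean therefore combines falls and rises. Adgre1, the gene of a classic macrophage surface antigen, read 12.87 and 12.89 before and 12.52 and 12.59 after treatment. Replicate arrays correlated across genes at r = 0.9974 (untreated) and 0.9939 (IFN-gamma/LPS), and genes are not independent replicates. The spread of signal narrowed after treatment. The upper quartile of the 19938 genes was 8.28 and 8.22 on the untreated arrays and 7.85 and 7.89 on the treated ones, and the lower quartile was 5.17 and 5.23 against 5.38 and 5.35. Bright genes therefore stood lower and dim genes slightly higher on the treated arrays as a whole, and the part of this shift in single small changes was not tested. After quantile normalization, which gives every array the same spread, 4398 genes were called higher and 4990 lower. Values below are log2 signals, and differences are log2 fold changes with the SE that limma gave (n = 2 arrays in each group). A gene rose or fell where its adjusted p was under 0.05 over all 19938 genes.

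More genes fell than rose, but the largest changes were rises. In limma 4701 genes were called higher, 23.6% of those tested, and 5656 were called lower, 28.4%, together 51.9%. Any count of list members is to be read against these shares. At 2-fold or more, 1168 genes rose (5.86%) and 2233 fell (11.2%). At 4-fold or more, 489 genes rose (2.45%) and 414 fell (2.08%). At 16-fold or more the numbers were 100 and 10, and at 64-fold or more 15 and 0. The median change was 0.50 among genes that rose and -0.83 among genes that fell, with a median SE of 0.12 over all genes and a median change of 0.11 over all genes. Without untreated array 1 the higher genes numbered 2936, the lower ones 4894.

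**Figure D1:**
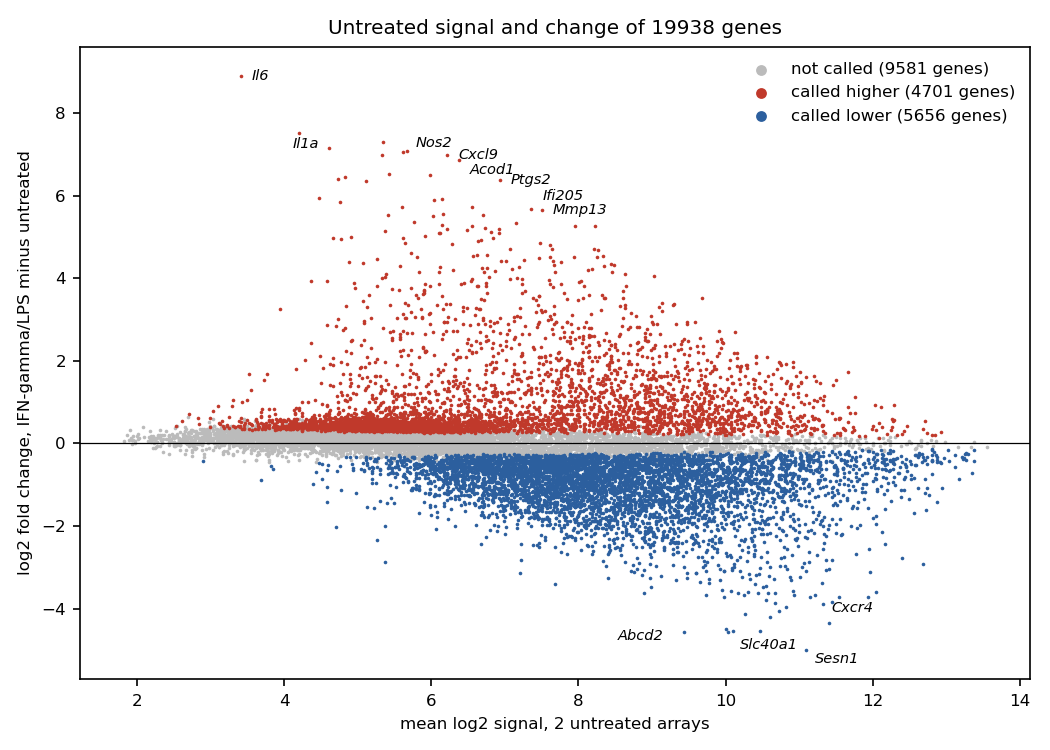
Each point is 1 of 19938 genes; the horizontal axis is the mean log2 signal of the 2 untreated arrays and the vertical axis the log2 fold change of IFN-gamma/LPS over untreated, coloured by the limma call. Il6 rose most, from an untreated mean of 3.41, and Sesn1 fell most, from 11.09.

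The 6 genes given here, a choice among the largest rises, started below the median of the untreated arrays, 6.29 and 6.31. They ended above the upper quartile of the treated ones, 7.85 and 7.89. Il6, the gene of the pyrogenic cytokine interleukin-6, read 3.41 and 3.40 on the untreated arrays and 12.30 and 12.30 on the treated ones, a rise of 8.90 ± 0.14 or 476-fold (adjusted p = 8.15e-13). The 2 arrays of each group were nearly equal. Gbp4, of a family of GTPases that attack vacuoles of intracellular microbes, read 5.04 and 5.66 before and 12.62 and 12.65 after treatment (7.29 ± 0.15). Upp1, a uridine phosphorylase that feeds ribose from uridine into central metabolism, read 5.12 and 5.72 against 11.94 and 11.94 (6.52 ± 0.19). In both of these genes the untreated arrays lay further apart than the treated ones. Lipg, endothelial lipase, which cleaves phospholipids of lipoproteins, rose from 4.61 and 4.91 to 10.58 and 10.63 (5.85 ± 0.15). Lhx2, a LIM-homeobox transcription factor, rose from 5.76 and 6.27 to 11.46 and 11.58 (5.51 ± 0.23). Saa3, an acute-phase protein of macrophages, rose from 5.61 and 5.92 to 11.29 and 10.97 (5.37 ± 0.13). No group overlapped the other in any of these genes, but leading genes were chosen among those without overlap. Of the rises above 6, predicted genes aside, Ptgs2 (untreated 6.80 and 7.05) and Acod1 (untreated 6.12 and 6.64) had a mean untreated signal above those medians. Ifi205 (5.68), Mmp13 (5.65) and Il27, with rises larger than that of Lhx2, also started above them.

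The deep falls with array values given here were in genes that untreated macrophages held at high signal. A gene at low signal has no room to fall as far. Sesn1, sestrin 1, an inhibitor of mTORC1 signalling, read 11.09 and 11.09 on the untreated arrays and 5.84 and 6.33 after treatment, a 32.1-fold fall (-5.01 ± 0.15, adjusted p = 9.10e-11). Arrb1, beta-arrestin 1, which switches off and internalises G protein-coupled receptors, fell from 11.48 and 11.31 to 6.94 and 7.16 (-4.35 ± 0.11). Arrdc3, of the related alpha-arrestins, fell from 10.62 and 10.60 to 6.32 and 6.48 (-4.21 ± 0.10). In both arrestin genes the gap between groups was many times that between replicates. Cerk, ceramide kinase, fell from 10.74 and 10.69 to 6.68 and 6.63 (-4.06 ± 0.09), and Slc46a3, a lysosomal transporter, from 10.83 and 10.81 to 6.71 and 7.02 (-3.96 ± 0.12). Fli1, an ETS transcription factor of blood cells, fell by 3.67 ± 0.15, and Mapk14, the gene of the p38-alpha kinase that LPS activates at the protein level, fell from 10.66 and 10.67 to 7.07 and 7.0 (-3.63 ± 0.08). The sialyltransferase gene St6gal1 (-3.71 ± 0.13) and the protein acyltransferase gene Zdhhc14 (-3.72 ± 0.09) fell to a like extent. In none of these genes did the groups overlap, which the choice of leading genes also required. Rasgrp3 (-4.57), Nfam1 (-4.55) and Otulinl (-4.49), and Abcd2 and Slc40a1, given below, also fell more than Arrb1.

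**Figure D2:**
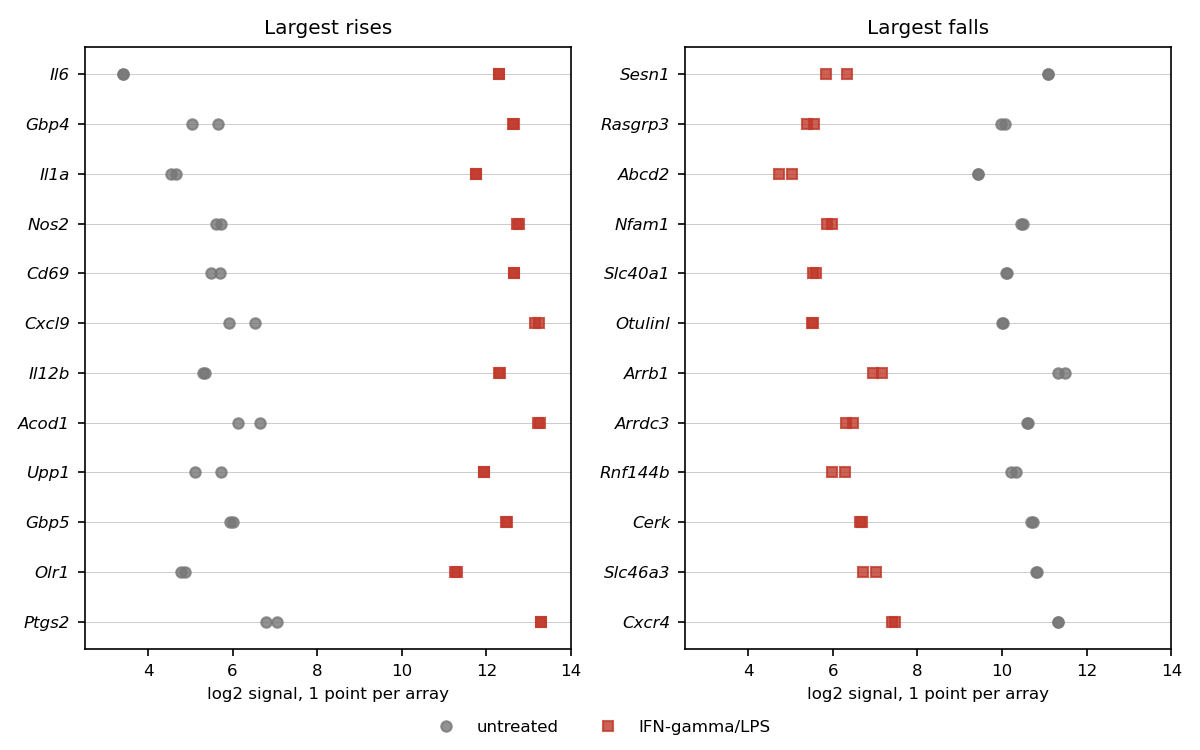
Log2 signal of the 12 leading rises (left) and 12 leading falls (right), 1 point per array, grey circles for the 2 untreated and red squares for the 2 IFN-gamma/LPS arrays. Leading genes were chosen among those whose groups do not overlap, and Il6 spans from 3.40 to 12.30.

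Receptor genes for the stimuli, listed with relatives of TLR4, were lower more often than higher. Of 8 such genes, Ly86 and Cd180 of the TLR4-related complex among them, 4 fell and 2 rose (1 without untreated array 1, and 1 after quantile normalization). Ifngr1, the ligand-binding chain of the IFN-gamma receptor, read 12.03 and 12.05 in untreated cells and 10.12 and 10.04 in treated cells, a change of -1.96 ± 0.07. The signalling chain gene Ifngr2 fell less, from 12.14 and 12.10 to 11.69 and 11.68 (-0.44 ± 0.05). Tlr4 fell from 9.60 and 9.67 to 8.80 and 8.68 (-0.90 ± 0.10), and Ly86, the MD-1 gene, fell by 0.41 ± 0.05, while its partner Cd180, an inhibitory homologue of TLR4, rose from 12.42 and 12.44 to 12.69 and 12.75 (0.29 ± 0.06). Of 10 other Toll-like receptor genes 4 rose and 4 fell. The double-stranded RNA sensor gene Tlr3 rose from 8.60 and 8.47 to 10.52 and 10.56 (2.01 ± 0.08), as did the lipopeptide receptor genes Tlr1 (1.76 ± 0.09) and Tlr6 (0.76 ± 0.13). The bacterial ribosomal RNA sensor gene Tlr13 fell from 11.91 and 11.97 to 8.18 and 8.27 (-3.72 ± 0.09), and Tlr2 (-1.36 ± 0.10) and Tlr8 (-1.39 ± 0.06) also fell.

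Downstream of the receptors, the kinases and adaptors moved both ways. Of 19 TLR4 adaptor and kinase genes 9 rose and 8 fell, with a median of 0.06. The ubiquitin ligase gene Peli1 led the rises (2.89 ± 0.10), followed by Irak2 (1.44 ± 0.08), Ikbke (1.42 ± 0.09), Myd88 (1.20 ± 0.08) and Map3k8 (1.14 ± 0.09), which encodes the kinase that links the NF-kB pathway to ERK. Tab1, an activator of the kinase TAK1, fell from 7.64 and 7.45 to 6.22 and 6.41 (-1.23 ± 0.12), and the TAK1 gene Map3k7 fell as well (-0.58 ± 0.13). So did Ticam2 (-0.79 ± 0.10), which bridges TLR4 to TRIF, Tirap (-0.57 ± 0.09) and the MyD88-complex kinase gene Irak1 (-0.55 ± 0.09). The TRIF gene Ticam1 rose by 0.47 ± 0.10.

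JAK and STAT genes rose nearly as a block. Among 9 measured members 8 rose and 1 fell, with a median of 1.89. Jak2, the kinase bound to IFNGR2, rose from 8.45 and 8.67 to 11.92 and 11.83 (3.32 ± 0.10), and Jak1, bound to IFNGR1, from 11.32 and 11.21 to 11.79 and 11.85 (0.56 ± 0.08). Stat2 (2.77 ± 0.09), the partner of IRF9 at ISRE elements, and Stat3 (1.89 ± 0.07), the mediator of IL-6 and IL-10 signals, rose, and Stat5a rose by 2.52 ± 0.09 against 0.97 ± 0.09 for its close copy Stat5b. Stat4, which relays IL-12 signals in lymphocytes, rose from 6.62 and 6.37 to 8.90 and 9.14 (2.53 ± 0.12). The member that fell was Stat6 (10.58 and 10.50 to 9.77 and 9.79, -0.76 ± 0.07), which relays IL-4 and IL-13. Against the other LPS treatment Stat4 stood higher by 3.30 ± 0.12, while Jak2 differed by 0.02 ± 0.10, adjusted p = 0.958.

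Transcription factor genes of the 3 pathways were among those called. Each of the 10 genes for NF-kB subunits and IkB proteins rose, though the call of Nfkbid (0.38 ± 0.11) was lost without IFN-gamma/LPS array 2 or untreated array 1 (0.38, 0.34). The inhibitor genes Nfkbie (7.45 and 7.47 to 10.96 and 11.07, 3.56 ± 0.10) and Nfkbiz (2.64 ± 0.08) led, ahead of the subunit genes Nfkb2 (2.44 ± 0.08), Rel (1.96 ± 0.06) and Relb (1.30 ± 0.09). Rela, the subunit that carries the early response, rose by 0.75 ± 0.08. In the AP-1 and ATF list 11 of 17 rose and 3 fell. Batf2, an interferon-induced partner of IRF1, rose from 6.66 and 6.68 to 11.62 and 11.56 (4.92 ± 0.12), and Maff (3.16 ± 0.09), Batf (2.93 ± 0.10) and Junb (2.39 ± 0.10) followed. Fos fell from 8.33 and 8.12 to 7.04 and 7.27 (-1.07 ± 0.12) at 6 h.

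The list of interferon regulatory factors also holds the corepressor gene Irf2bp2. Of the 10 genes in that list 6 rose and 4 fell. Irf1 rose from 9.18 and 9.10 to 12.31 and 12.36 (3.20 ± 0.08), Irf7 from 9.97 and 9.81 to 12.36 and 12.39 (2.49 ± 0.08) and Irf8 from 11.70 and 11.63 to 13.37 and 13.39 (1.72 ± 0.06). Irf3, the constitutive factor that LPS activates without new synthesis, fell from 8.02 and 8.10 to 7.32 and 7.30 (-0.75 ± 0.10), and the corepressor gene Irf2bp2 fell by 2.69 ± 0.11. Ifnb1, the interferon-beta gene, stood at 4.78 and 5.01 in untreated and 6.00 and 5.95 in treated cells, a rise of 1.08 ± 0.12. The receptor chain genes Ifnar1 (-0.36 ± 0.07) and Ifnar2 (-0.31 ± 0.06) and Il10rb (-0.98 ± 0.07), shared by the interferon-lambda and IL-10 receptors, fell.

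Nuclear receptor and lineage factor genes moved in both directions. Of 19 nuclear receptors 11 fell and 6 rose. The vitamin D receptor gene Vdr rose from 5.69 and 5.58 to 9.13 and 8.91 (3.39 ± 0.11), and the orphan receptor genes Nr4a3 (3.04 ± 0.14) and Nr4a2 (2.15 ± 0.10) rose too. Rxra, the common partner of retinoid, lipid and vitamin D receptors, fell from 9.08 and 8.86 to 6.65 and 6.28 (-2.51 ± 0.13), and Pparg fell from 11.05 and 10.92 to 9.16 and 9.17 (-1.82 ± 0.07). Thyroid hormone receptor alpha, Thra (-1.76 ± 0.10), Rora (-1.63 ± 0.10) and Rara (-1.51 ± 0.09) also fell. In the list of lineage and immediate-early factors, Mxd1, a MYC antagonist, rose by 3.22 ± 0.08 and its partner Max by 2.02 ± 0.08. Hif1a, the hypoxia and glycolysis factor, rose from 10.55 and 10.50 to 12.03 and 12.02 (1.5 ± 0.09), and Cebpb by 1.41 ± 0.10, while Cebpa (-2.43 ± 0.11), Bhlhe41 (-2.82 ± 0.16) and the lysosome factor gene Tfeb (-1.56 ± 0.10) fell. The microglia and macrophage factor Spi1 rose by 0.32 ± 0.06.

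Start-site windows of genes that rose at least 4-fold held the letters of the interferon and NF-kB elements more often than windows of all genes. Windows of 300 bases, from 250 before to 50 after an annotated start site of the RefSeq annotation of GRCm38.p6, were matched to 15563 of the 19938 genes. For the 2628 genes with several windows the first listed was read. An ISRE was searched as a pair of GAAA with any 2 bases between, a GAS element as TTCNNNGAA and the NF-kB site by its common degenerate consensus, each on both strands, and the motifs may overlap. An ISRE match lay in 13.5% of 371 windows of genes that rose at least 4-fold, against 1.52% of 330 windows of genes that fell at least 4-fold and 3.32% of all windows. An NF-kB match lay in 6.74%, 1.21% and 2.44% of the same sets, and a GAS match in 11.1%, 3.94% and 7.85%. Over the 3621 windows of all genes called higher, whatever their fold, the shares were nearer those of all windows, at 4.64% for ISRE, 3.59% for NF-kB and 7.87% for GAS. The 7 windows below were picked, with their values known, because they show each motif alone and in combination in genes that rose. Capitals mark the ISRE, GAS and NF-kB matches, and positions count from the start site at 0.

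Il6 (chr5:30012864-30013163, plus strand, NF-kB at -44 to -35) and Cxcl2 (chr5:90903649-90903948, plus strand, a pair of overlapping NF-kB matches from -97 to -87) show NF-kB matches without the interferon elements. Ifit1 (chr19:34640639-34640938, plus strand) holds ISRE matches at -104 to -95 and -85 to -76. Cxcl10 (chr5:92348840-92349139, minus strand) holds an ISRE at -213 to -204 and NF-kB matches at -159 to -150 and -103 to -94. Gbp5 (chr3:142496684-142496983, plus strand) holds GAS matches at -245 to -237 and -52 to -44, an ISRE at -165 to -156 and an NF-kB match at -77 to -68. Irf1 (chr11:53769764-53770063, plus strand) holds a GAS match at -90 to -82 and an NF-kB match at -13 to -4. Socs3 (chr11:117969317-117969616, minus strand) holds a GAS match at -154 to -146.
Il6: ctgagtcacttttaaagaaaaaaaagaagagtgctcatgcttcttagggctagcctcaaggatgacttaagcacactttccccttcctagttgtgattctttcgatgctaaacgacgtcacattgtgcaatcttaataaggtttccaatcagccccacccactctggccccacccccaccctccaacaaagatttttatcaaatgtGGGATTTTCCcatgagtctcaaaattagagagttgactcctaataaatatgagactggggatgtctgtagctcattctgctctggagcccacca
Cxcl2: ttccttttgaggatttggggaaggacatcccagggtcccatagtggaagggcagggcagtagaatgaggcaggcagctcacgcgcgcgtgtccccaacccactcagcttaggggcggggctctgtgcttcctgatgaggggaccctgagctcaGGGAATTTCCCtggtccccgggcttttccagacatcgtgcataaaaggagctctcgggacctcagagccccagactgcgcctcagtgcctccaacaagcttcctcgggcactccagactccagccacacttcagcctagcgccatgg
Ifit1: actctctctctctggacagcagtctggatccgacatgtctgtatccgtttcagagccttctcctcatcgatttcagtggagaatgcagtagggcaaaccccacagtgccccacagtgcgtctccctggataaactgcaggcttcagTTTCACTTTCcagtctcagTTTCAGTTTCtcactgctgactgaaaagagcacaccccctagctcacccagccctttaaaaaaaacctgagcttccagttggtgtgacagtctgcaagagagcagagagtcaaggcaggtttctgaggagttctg
Cxcl10: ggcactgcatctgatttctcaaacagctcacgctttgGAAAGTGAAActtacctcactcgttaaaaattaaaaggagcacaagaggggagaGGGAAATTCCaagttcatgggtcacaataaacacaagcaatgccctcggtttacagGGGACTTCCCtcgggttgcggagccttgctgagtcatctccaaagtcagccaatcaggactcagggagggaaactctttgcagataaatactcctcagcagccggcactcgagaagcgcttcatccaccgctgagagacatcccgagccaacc
Gbp5: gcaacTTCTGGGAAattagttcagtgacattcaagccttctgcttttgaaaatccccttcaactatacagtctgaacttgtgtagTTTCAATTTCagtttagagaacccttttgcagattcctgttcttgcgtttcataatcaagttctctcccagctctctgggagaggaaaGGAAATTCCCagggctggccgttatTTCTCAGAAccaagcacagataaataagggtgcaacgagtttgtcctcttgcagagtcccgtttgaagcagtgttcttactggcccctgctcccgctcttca
Irf1: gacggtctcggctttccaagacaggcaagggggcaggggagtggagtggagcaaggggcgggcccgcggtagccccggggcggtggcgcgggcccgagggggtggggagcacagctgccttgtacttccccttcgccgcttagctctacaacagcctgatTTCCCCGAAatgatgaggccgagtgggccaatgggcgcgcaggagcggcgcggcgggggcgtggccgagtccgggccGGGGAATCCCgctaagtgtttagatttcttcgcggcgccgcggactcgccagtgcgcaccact
Socs3: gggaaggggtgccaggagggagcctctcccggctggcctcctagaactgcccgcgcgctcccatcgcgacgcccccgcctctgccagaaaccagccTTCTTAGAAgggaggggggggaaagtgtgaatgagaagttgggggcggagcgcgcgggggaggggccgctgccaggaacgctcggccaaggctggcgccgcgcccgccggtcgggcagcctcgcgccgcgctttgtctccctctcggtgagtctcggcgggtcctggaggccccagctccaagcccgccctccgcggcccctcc

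These 7 genes rose by between 3.20 (Irf1) and 8.90 (Il6). Against LPS/IL-4/IL-13, Il6 (2.53 ± 0.14), Irf1 (1.14 ± 0.08) and Gbp5 (0.28 ± 0.09) stood higher under IFN-gamma/LPS and Socs3 stood lower (-0.41 ± 0.10). The call of Gbp5 was lost without any 1 of the 4 arrays, at 0.25 to 0.30, and after median centring (0.27), and that of Socs3 without IFN-gamma/LPS array 1 (-0.38) or LPS/IL-4/IL-13 array 1 (-0.34). In the same comparison Ifit1 (-0.06 ± 0.09, adjusted p = 0.784), Cxcl10 (0.11 ± 0.09, adjusted p = 0.544) and Cxcl2 (-0.18 ± 0.15, adjusted p = 0.542) did not pass. A match is a string of letters, not a measured binding site. Windows of genes that rose at least 4-fold had a median of 12 CpG dinucleotides, against 15 over all windows and 19 for genes that fell at least 4-fold. The median GC content was 55.3%, 57.7% and 60.8% in the same order. The E2F core GCGGGAA, an element of cell cycle genes, lay in 9.13% of the 4667 windows of genes called lower but in 4.24% of those that fell at least 4-fold, on either side of the 6.48% of all windows. The Sp core CCCGCCC lay in 49.5%, 51.5% and 36.7% in the same order. Among rising genes of 4-fold or more, 197 that also stood higher than under LPS/IL-4/IL-13 had an ISRE in 10.7% and a GAS match in 12.7% of windows, and the other 174 had 16.7% and 9.2%. The median CpG number was 16 in the first set, above that of all windows, and 8 in the second, with a GC content of 58.7% and 53%.

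**Figure D3:**
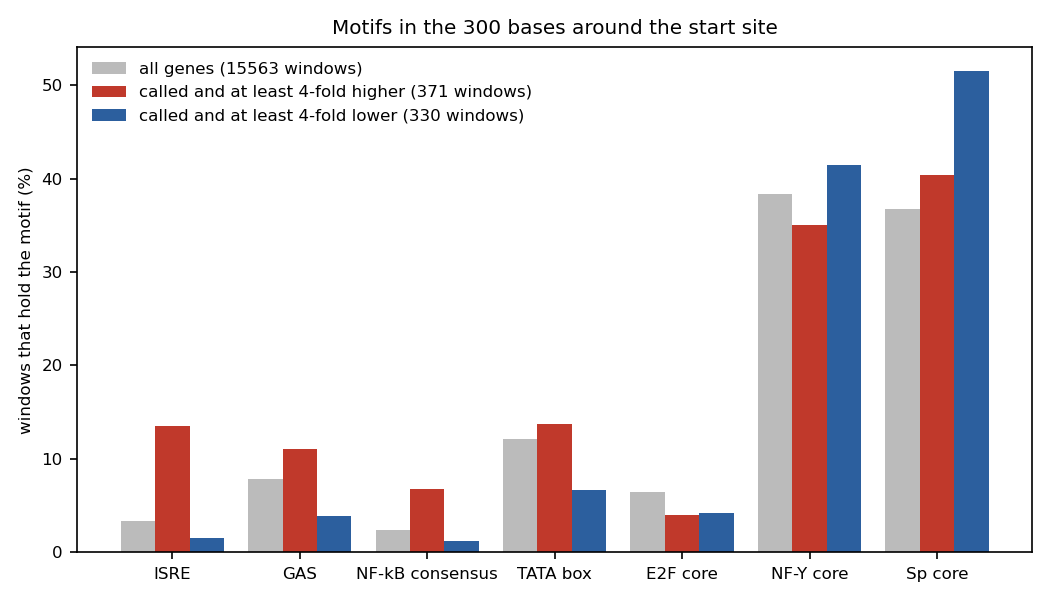
Share of 300-base start-site windows that hold each motif on either strand, in percent, for all genes with a window (grey), genes called at least 4-fold higher (red) and genes called at least 4-fold lower (blue). The red ISRE bar stands at 13.5% and the blue one at 1.52%.

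Several genes that restrain the same pathways rose alongside them. Of 8 SOCS genes 5 rose and 2 fell (1 after quantile normalization). Socs3 went from 6.35 and 6.63 to 11.62 and 11.68 (5.16 ± 0.10), Socs1 from 6.72 and 6.36 to 10.40 and 10.56 (3.94 ± 0.12) and Cish from 5.50 and 5.44 to 9.26 and 9.16 (3.74 ± 0.09), and Socs6 fell (-0.89 ± 0.11). Among A20 and other ubiquitin-editing regulators 12 of 19 rose and 4 fell (2 after quantile normalization). Traf1 (4.42 ± 0.10), the A20 gene Tnfaip3 (8.22 and 8.04 to 12.34 and 12.31, 4.20 ± 0.09) and Usp18 (4.14 ± 0.11), which removes ISG15 and blocks the type I interferon receptor, led. Itch (-1.01 ± 0.08) and Otulin (-0.92 ± 0.11), which trims linear ubiquitin chains, fell. The dual-specificity phosphatases, which switch off MAP kinases, split into 7 up and 6 down of 13. Dusp2 (3.37 ± 0.11), Dusp5 (2.94 ± 0.10), Dusp16 (2.79 ± 0.12) and Dusp1 (2.10 ± 0.08) rose, and the ERK phosphatase gene Dusp6 fell from 8.06 and 8.08 to 5.99 and 6.19 (-1.98 ± 0.11). Of 16 factors of mRNA decay 7 rose and 5 fell. The tristetraprolin gene Zfp36 rose (1.82 ± 0.08), as did the RNase gene Zc3h12a (1.5 ± 0.09), while the related Zfp36l1 (-2.69 ± 0.09) and Zfp36l2 (-1.18 ± 0.09) fell.

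Cytokine genes rose in families. All 5 IL-12 family genes were called higher, though the call of Il23a (0.34 ± 0.13) was lost without any 1 of the 4 arrays, at 0.24 to 0.43, and after quantile normalization (0.16). Il12b rose from 5.30 and 5.35 to 12.29 and 12.31 (6.98 ± 0.10), Il27 from 6.62 and 6.77 to 12.24 and 12.21 (5.53 ± 0.12), Il12a by 3.26 ± 0.12 and Ebi3 by 1.33 ± 0.09. The prototype LPS-induced cytokine gene Tnf rose from 8.25 and 8.29 to 12.94 and 12.93 (4.67 ± 0.08). In the IL-1 family 12 of 16 rose and none fell. Il1a rose from 4.55 and 4.66 to 11.75 and 11.76 (7.15 ± 0.15), Il1b from 7.96 and 7.91 to 12.41 and 12.48 (4.51 ± 0.11), the receptor antagonist gene Il1rn by 4.54 ± 0.08, Il33 by 3.93 ± 0.12 and Il18 by 3.10 ± 0.11, together with the IL-18 inhibitor gene Il18bp (2.34 ± 0.08) and the receptor chain gene Il18rap (2.80 ± 0.13). In the IL-6 and IL-10 families 9 of 15 genes rose and 3 fell. The ligand genes Il10 (7.07 and 6.67 to 11.02 and 11.05, 4.17 ± 0.14), Clcf1 (1.65 ± 0.11), Osm (1.57 ± 0.09) and Lif (0.99 ± 0.11) rose. The genes that fell were receptors: Il6ra went from 10.60 and 10.52 to 7.63 and 7.73 (-2.88 ± 0.10), Lifr fell by 2.30 ± 0.12 and the shared chain gene Il6st by 1.14 ± 0.08. Other receptor genes of the list rose, Il10ra by 0.59 ± 0.07 and Osmr by 1.29 ± 0.15.

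Chemokine and TNF superfamily genes followed. Of 18 CC chemokines 10 rose and 1 fell (2 after quantile normalization). Ccl12 rose from 4.53 and 4.41 to 10.27 and 10.57 (5.95 ± 0.16), and the other monocyte attractants Ccl7 (5.10 ± 0.08), Ccl2 (3.87 ± 0.13) and Ccl8 (3.81 ± 0.14) rose too, while Ccl6 fell (-1.44 ± 0.07). Of 14 CXC chemokines 9 rose. The CXCR3 ligand genes Cxcl9 (5.91 and 6.53 to 13.25 and 13.15, 6.98 ± 0.15), Cxcl11 (5.90 ± 0.14) and Cxcl10 (5.26 ± 0.09) led, and the neutrophil attractant genes Cxcl2 (4.38 ± 0.15) and Cxcl1 (1.35 ± 0.11) rose less. The platelet factor gene Pf4 fell (-0.80 ± 0.11). Among TNF superfamily ligands 8 of 15 rose. Tnfsf10, the death ligand TRAIL, rose from 5.55 and 5.65 to 11.32 and 11.34 (5.73 ± 0.10), Tnfsf4, the T cell ligand OX40L, from 4.62 and 4.71 to 9.64 and 9.65 (4.98 ± 0.15), and Tnfsf15 (3.89 ± 0.12), Tnfsf9 (3.86 ± 0.14) and Tnfsf18 (2.97 ± 0.15) by less. The B cell survival factor gene Tnfsf13b fell (-0.85 ± 0.10). Among 23 receptors 8 rose and 4 fell, led by Cd40 (5.26 ± 0.07), Fas (3.85 ± 0.10) and Tnfrsf12a (2.66 ± 0.11) upward and Tnfrsf21 (-2.55 ± 0.11) downward. The chemoattractant receptors pointed down more often, 12 of 20 against 6 up. The lysophosphatidic acid receptor gene Lpar1 rose from 5.72 and 5.74 to 10.39 and 10.30 (4.62 ± 0.09) and Lpar6 fell from 11.46 and 11.41 to 7.47 and 7.71 (-3.85 ± 0.14). The sphingosine phosphate receptor gene S1pr1 fell by 3.08 ± 0.12 and the oxysterol receptor gene Gpr183 by 2.57 ± 0.09.

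**Figure D4:**
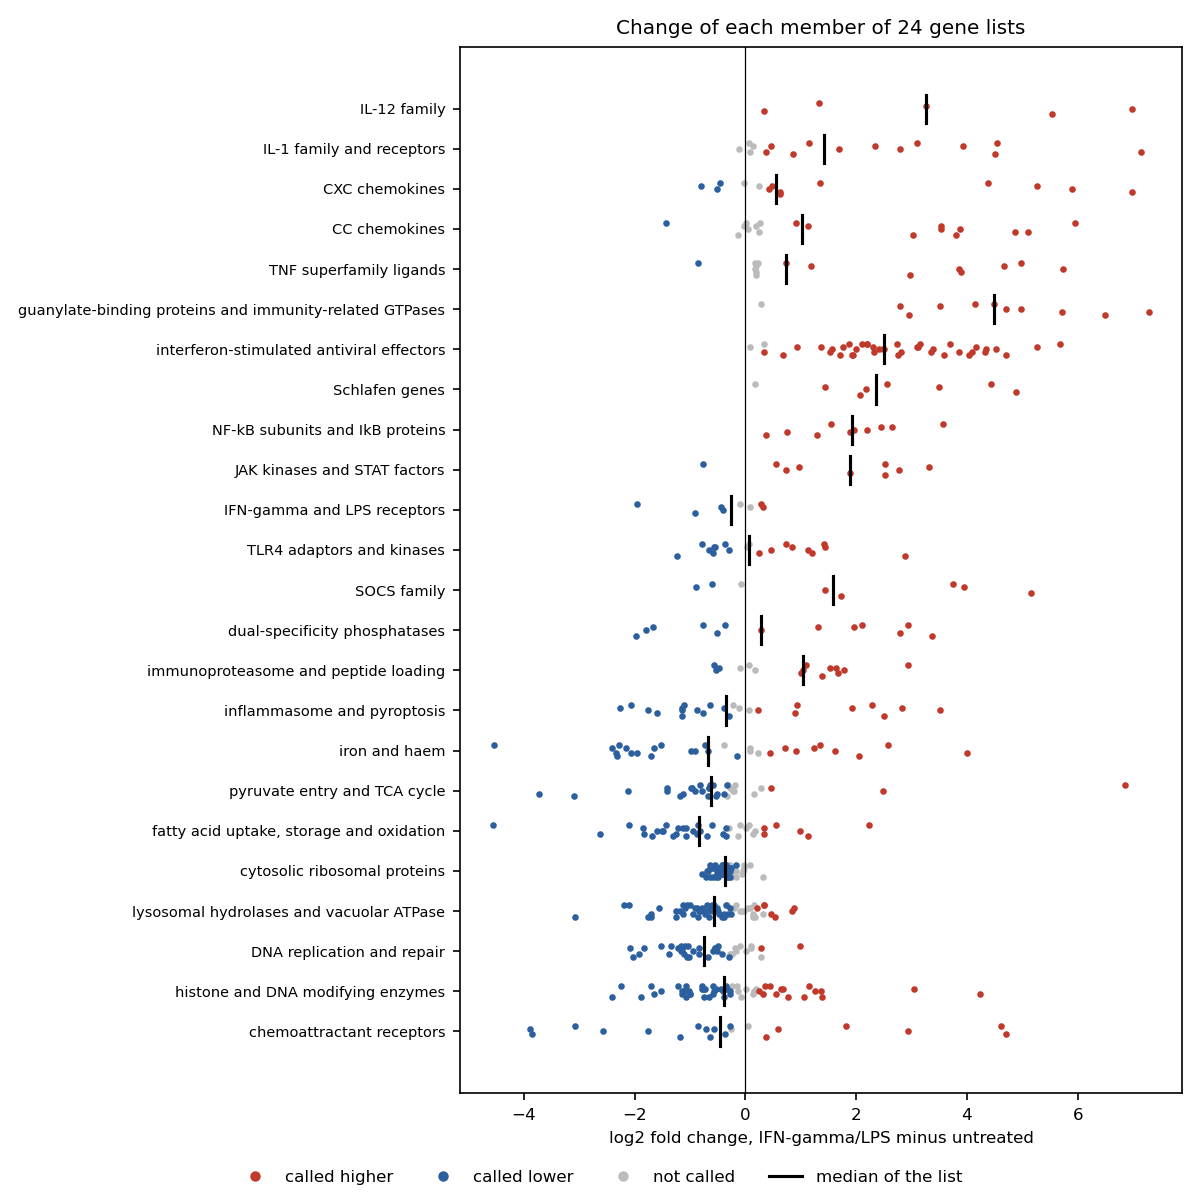
Log2 fold change of IFN-gamma/LPS over untreated for every measured member of 24 gene lists, 1 point per gene, red where called higher, blue where called lower and grey where not called; the black bar is the median of the list. Medians run from 4.48 (guanylate-binding proteins and immunity-related GTPases) to -0.83 (fatty acid uptake, storage and oxidation).

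Interferon effector genes rose with few exceptions. Of 11 guanylate-binding proteins and immunity-related GTPases 10 rose, with a median of 4.48, and the testis-type copy Irgc1 was not called (0.29), though it was without untreated array 2 (0.44). Iigp1, which helps to break up parasite vacuoles, rose from 6.63 and 6.47 to 12.30 and 12.24 (5.72 ± 0.12). Of 42 antiviral effectors 40 rose and none fell, with a median of 2.5. Ifi205, of the p200 family, rose from 7.60 and 7.11 to 13.03 and 13.04 (5.68 ± 0.16), and Mx1 from 6.59 and 6.52 to 11.82 and 11.82 (5.27 ± 0.11). The RNA sensor genes Ifih1 (3.38 ± 0.07), Dhx58 (3.16 ± 0.08) and Ddx58 (1.71 ± 0.07), the oligoadenylate synthetase-like gene Oasl1 (4.34 ± 0.08) and the viperin gene Rsad2 (4.04 ± 0.10) rose. Ifitm2 was not called (0.09 ± 0.06, adjusted p = 0.217). Of 19 MS4A genes 7 rose and 2 fell, with Ms4a4c up by 4.23 ± 0.11 and Ms4a4a down by 1.12 ± 0.10. TRIM genes split into 20 up and 17 down of 58, led by Trim13 (3.28 ± 0.10) upward and Trim8 (-1.77 ± 0.08) downward. Members of these families share sequence, and a probe set may take signal from a near copy.

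Many of these genes lie side by side. Over 19499 genes placed on the GRCm38.p6 annotation, runs of neighbouring measured genes that all rose at least 2-fold were collected. The longest held 8 genes, all of the Schlafen cluster on chromosome 11, with rises from 1.44 ± 0.07 (Slfn2) to 4.89 ± 0.11 (Slfn4). A run of 6 on chromosome 7 held TRIM genes from Trim34a (1.08 ± 0.10) to Trim30d (2.52 ± 0.12). Runs of 5 held the Ifit genes on chromosome 19, from Ifit3 (2.73 ± 0.13) to Ifit2 (4.70 ± 0.10), the p200 genes on chromosome 1 and the genes around Sp100 and Sp140 on the same chromosome. Shorter runs joined the proteasome and transporter genes Psmb9, Tap1, Psmb8 and Tap2 on chromosome 17, Gbp5, Gbp7, Gbp3 and Gbp2b on chromosome 3, and Casp1, Casp4 and Casp12 on chromosome 9. The longest run of falls held 6 zinc finger genes on chromosome 17, from Zfp53 to Zfp229, between -2.31 and -1.01. Runs of 3 or more numbered 33 among rises and 77 among falls, with 1168 and 2233 genes past 2-fold to draw on. Close copies in a run can share signal, as above, so a run of paralogues is not a set of independent rises.

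Antigen processing and costimulation genes rose more often than they fell. Of 15 immunoproteasome and peptide-loading genes 9 rose. Tap1 went from 9.06 and 8.94 to 11.93 and 11.93 (2.93 ± 0.07), Psmb9 rose by 1.78 ± 0.08 and Psmb8 by 1.64 ± 0.10, while the chaperone genes Calr (-0.57 ± 0.07), Pdia3 (-0.53 ± 0.06) and Canx (-0.48 ± 0.05) fell. Constitutive proteasome genes moved little and both ways, 11 up (7 without untreated array 2, 17 after quantile normalization) and 8 down of 34. Among costimulatory and checkpoint genes 14 of 23 rose and 6 fell. Cd69, an early activation antigen, rose from 5.50 and 5.71 to 12.65 and 12.66 (7.05 ± 0.10), Slamf1 from 5.03 and 5.19 to 11.53 and 11.36 (6.34 ± 0.12) and Cd274, the PD-L1 gene, from 8.43 and 8.26 to 12.61 and 12.65 (4.29 ± 0.08). Cd86 (3.81 ± 0.10) and Cd80 (1.94 ± 0.10) rose together, and the adhesion gene Icam1 rose by 3.40 ± 0.07. The inhibitory receptor genes Cd200r1 (-2.17 ± 0.11) and Sirpa (-1.09 ± 0.05) and the adhesion receptor gene Cd84 (-2.22 ± 0.09) fell. Ciita, the master regulator of MHC class II, read 7.27 and 7.14 before and 7.08 and 7.22 after treatment and was not called (-0.06 ± 0.11, adjusted p = 0.697), though it was called higher after quantile normalization (0.31).

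Inflammasome and cell death genes moved both ways. Of 24 inflammasome genes 8 rose and 13 fell. Casp4, the caspase-11 gene whose product binds LPS in the cytosol, rose from 8.34 and 8.36 to 11.87 and 11.84 (3.51 ± 0.11), and Nlrp3 rose from 8.72 and 8.88 to 11.62 and 11.62 (2.82 ± 0.09), with Casp1 (1.92 ± 0.11), the pyrin gene Mefv (2.51 ± 0.13) and the pore-former gene Gsdmd (0.90 ± 0.10). Other sensors fell. Nlrc4 dropped from 7.67 and 7.41 to 5.45 and 5.11 (-2.26 ± 0.20), with its flagellin receptors Naip5 (-0.88 ± 0.10) and Naip6 (-0.77 ± 0.12), as did Nlrp1b (-1.59 ± 0.11) and Nlrp1a (-1.15 ± 0.12). P2rx7, the ATP-gated channel that triggers NLRP3, fell from 10.40 and 10.39 to 8.30 and 8.36 (-2.07 ± 0.08), and the NLRP3 partner gene Nek7 by 1.15 ± 0.08. Among apoptosis and necroptosis genes 12 of 25 rose and 6 fell. The necroptosis executor gene Mlkl rose from 7.06 and 7.07 to 11.07 and 11.01 (3.98 ± 0.11) and its kinase gene Ripk3 by 1.44 ± 0.13, beside the death-inhibiting Cflar (3.04 ± 0.08). Casp6 fell from 9.57 and 9.66 to 7.06 and 7.33 (-2.42 ± 0.10) and Casp2 by 1.5 ± 0.09.

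Some enzymes that make reactive and signalling molecules rose by large steps. Of 19 nitric oxide, arginine and polyamine genes 9 rose and 6 fell. Nos2, the inducible nitric oxide synthase, rose from 5.73 and 5.60 to 12.76 and 12.73 (7.08 ± 0.10), Slc7a2, which imports its substrate arginine, from 6.28 and 6.14 to 11.40 and 11.40 (5.19 ± 0.08), and Gch1, the first enzyme of its cofactor tetrahydrobiopterin, from 6.75 and 6.75 to 9.38 and 9.32 (2.60 ± 0.12). Later cofactor enzymes went the other way, Spr (-0.82 ± 0.14) and the recycling enzyme Qdpr (-0.98 ± 0.13), as did the citrulline-recycling gene Asl (-0.93 ± 0.10). In the prostaglandin pathway Ptgs2, cyclooxygenase 2, rose from 6.80 and 7.05 to 13.30 and 13.30 (6.38 ± 0.09), with the arachidonate-releasing Pla2g4a (2.89 ± 0.12) before it and the prostaglandin E synthase gene Ptges (3.62 ± 0.14) after it. The prostaglandin D synthase gene Hpgds (-1.99 ± 0.09), the degrading enzyme gene Hpgd (-3.11 ± 0.08) and the thromboxane synthase gene Tbxas1 (-1.23 ± 0.07) fell, as did Lta4h (-2.20 ± 0.12) and Alox5ap (-1.25 ± 0.08) of leukotriene synthesis. In the whole list 8 of 27 rose (5 without untreated array 1, and 5 without untreated array 2) and 10 fell.

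Among enzymes of immune-active metabolites 12 of 21 rose and 5 fell (3 after quantile normalization). Acod1, which makes itaconate, rose from 6.12 and 6.64 to 13.26 and 13.21 (6.86 ± 0.14). Ido1 (3.0 ± 0.16), Ido2 (2.08 ± 0.10) and Kynu (3.45 ± 0.11) of tryptophan breakdown rose, but Kmo, between them in the pathway, fell (-0.63 ± 0.11). The nucleoside and NAD genes Pnp (2.89 ± 0.08) and Nampt (2.43 ± 0.07) rose and the ATP-degrading ectoenzyme gene Entpd1 fell from 11.67 and 11.62 to 10.22 and 10.35 (-1.36 ± 0.07). Of 9 NADPH oxidase genes 3 rose and 4 fell. The core gene Cybb rose slightly (0.26 ± 0.05), its partners Cyba (-0.43 ± 0.07) and Ncf4 (-0.72 ± 0.08) fell, and Nox1 rose from 6.21 and 6.08 to 8.63 and 8.71 (2.53 ± 0.13). Antioxidant genes fell more often than they rose, 13 of 25 against 7 up. The glutathione genes Gpx1 (-1.98 ± 0.09), Gclm (-1.57 ± 0.09) and Gclc (-1.45 ± 0.10), and Srxn1 (-1.74 ± 0.09) fell, while the mitochondrial superoxide dismutase gene Sod2 (10.12 and 10.14 to 12.84 and 12.82, 2.70 ± 0.06) and the cystine importer gene Slc7a11 (2.55 ± 0.13) rose.

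Of 29 iron and haem genes 16 fell and 9 rose. Slc40a1, ferroportin, the only known iron exporter, fell from 10.09 and 10.11 to 5.60 and 5.54 (-4.53 ± 0.11). The haem-handling genes Hmox1 (11.37 and 11.31 to 9.02 and 8.85, -2.41 ± 0.08), Slc48a1 (-2.15 ± 0.09) and Flvcr1 (-2.33 ± 0.10) fell, as did Ncoa4, which sends ferritin to lysosomes (-2.31 ± 0.11), and the transferrin receptor gene Tfrc (-1.70 ± 0.12). Those that rose included Steap4, a metalloreductase (5.52 and 5.13 to 9.39 and 9.25, 4.0 ± 0.15), ceruloplasmin Cp (2.57 ± 0.10), the siderophore-binding Lcn2 (2.05 ± 0.11), hepcidin Hamp (1.61 ± 0.22) and the importer genes Slc11a2 (1.35 ± 0.08), Slc39a14 (1.24 ± 0.13) and Slc39a8 (0.92 ± 0.13). Of 27 zinc transporters and metallothioneins 11 rose and 7 fell (4 after quantile normalization). Slc30a4 rose (2.80 ± 0.07), and Mt2 rose from 10.82 and 11.01 to 12.78 and 12.76 (1.86 ± 0.08). Slc30a5 (-1.80 ± 0.13) and Slc39a10 (-1.62 ± 0.12) fell.

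Sugar genes moved in both directions. Of 33 genes of glucose uptake, glycolysis and the pentose phosphate pathway 12 rose and 14 fell, with a median of -0.08. The glycolysis genes Hk3 (2.66 ± 0.08), Hk2 (2.03 ± 0.14), Pfkp (8.77 and 8.88 to 11.63 and 11.64, 2.81 ± 0.07) and Pfkfb3 (1.81 ± 0.10) rose, with the transporters Slc2a6 (3.08 ± 0.07) and Slc16a1 (2.08 ± 0.11). The pentose phosphate genes Tkt (-1.26 ± 0.10) and Taldo1 (-1.12 ± 0.09) fell, and so did Pfkfb4 (-1.96 ± 0.10) and Pfkfb2 (-1.80 ± 0.13), paralogues of Pfkfb3. In the list of pyruvate entry and the TCA cycle 22 of 33 fell and 3 rose. This list is wider than the cycle itself, and its rises include the itaconate gene Acod1. Idh1, the gene of the cytosolic isocitrate dehydrogenase, fell from 11.54 and 11.53 to 7.81 and 7.83 (-3.72 ± 0.09). The fumarase gene Fh1 fell by 2.12 ± 0.10 and Idh3g, a subunit of mitochondrial NAD-dependent isocitrate dehydrogenase, by 1.42 ± 0.07. The pyruvate dehydrogenase kinases went opposite ways, Pdk3 from 7.84 and 7.83 to 10.26 and 10.39 (2.49 ± 0.13) and Pdk2 from 8.76 and 8.65 to 5.40 and 5.83 (-3.09 ± 0.14). Fatty acid genes fell in 25 of 38 cases. Abcd2, a peroxisomal importer of very long chains, fell from 9.43 and 9.43 to 5.03 and 4.72 (-4.56 ± 0.12), and Acadm (-2.62 ± 0.13), Hadh (-2.10 ± 0.12) and the carnitine transferase gene Cpt1a (-1.83 ± 0.08) fell. Hilpda, an inhibitor of lipid droplet breakdown, rose from 5.88 and 5.93 to 8.10 and 8.18 (2.24 ± 0.10). Of 72 respiratory chain genes 43 fell (27 without untreated array 1) and 3 rose (10 after quantile normalization), mostly by small steps, with a median of -0.33. Ndufc2 fell most (-1.43 ± 0.06) and Ndufs4 rose most (1.29 ± 0.09).

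Genes of protein synthesis and lysosomes fell more often than they rose, by amounts that varied by list. Falls of at least 2-fold made up 15 of 62 lysosomal, 8 of 32 aminoacyl-tRNA synthetase and 8 of 25 stress genes. They made up 12 of 77 mitochondrial and 0 of 61 cytosolic ribosomal protein genes, beside 11.2% of all genes. Of 61 cytosolic ribosomal protein genes 44 fell and 0 rose (1 after median centring, and 1 without IFN-gamma/LPS array 1), with a median of -0.37 and the largest fall in Rpsa (-0.78 ± 0.07). Mitochondrial ribosomal protein genes fell in 46 of 77 cases and rose in 5, and quantile normalization changed these counts to 32 and 21. Mrpl40 fell from 10.48 and 10.42 to 8.77 and 8.89 (-1.62 ± 0.09) and Mrpl13 rose from 7.34 and 7.38 to 8.65 and 8.60 (1.27 ± 0.11). Of 32 aminoacyl-tRNA synthetases 22 fell and 5 rose (8 after quantile normalization). Wars, the interferon-inducible tryptophan enzyme, rose from 8.58 and 8.31 to 10.77 and 10.86 (2.37 ± 0.10), Farsa by 1.23 ± 0.10 and Rars by 1.14 ± 0.08, while Sars (-1.56 ± 0.08) and Iars (-1.40 ± 0.11) fell. In the unfolded protein and stress list 12 of 25 fell and 8 rose. Ppp1r15a, which restores translation after stress, rose from 7.48 and 7.59 to 10.69 and 10.79 (3.21 ± 0.10), the serine synthesis gene Psat1 by 2.94 ± 0.11 and Mthfd2 by 1.45 ± 0.13. The stress kinase genes Eif2ak3 (8.44 and 8.38 to 5.60 and 5.96, -2.63 ± 0.13), Ern1 (-1.62 ± 0.09) and Eif2ak4 (-1.60 ± 0.11) fell. Of 62 lysosomal genes 42 fell and 7 rose. The heparan sulphate-degrading Sgsh fell from 10.04 and 9.91 to 6.90 and 6.89 (-3.08 ± 0.10), the cholesterol exporter gene Npc1 by 2.19 ± 0.07, the sphingomyelinase gene Smpd1 by 2.10 ± 0.08 and Neu1 by 1.75 ± 0.10. Ctsc (0.54 ± 0.05) and the proton pump subunit genes Atp6v1d (0.87 ± 0.08) and Atp6v1e1 (0.85 ± 0.09) rose.

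Transporter genes also moved in both directions. Of 40 amino acid transporters 10 rose and 10 fell, which is near the shares of all genes, 23.6% and 28.4%. These counts therefore do not set the list apart from genes in general. Slc43a2, a carrier of large neutral amino acids, fell from 10.71 and 10.63 to 6.72 and 6.91 (-3.86 ± 0.10), and the proton-coupled carriers Slc36a1 (-2.63 ± 0.12) and Slc36a4 (-2.72 ± 0.09) and the lysosomal amino acid sensor gene Slc38a9 (-1.58 ± 0.11) fell. Slc7a8 rose (1.11 ± 0.06). Of 50 ABC transporters 21 fell and 8 rose (5 without either IFN-gamma/LPS array, and 4 without untreated array 1). The peptide transporters Tap1 (2.93 ± 0.07) and Tap2 (1.53 ± 0.15) were 2 of those, and the cholesterol exporter gene Abca1 fell from 11.32 and 11.30 to 7.91 and 7.95 (-3.38 ± 0.08).

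Replication and chromatin genes fell more often than they rose, and cell cycle genes moved both ways. Of 38 replication and repair genes 27 fell and 2 rose (1 without untreated array 1, and 1 without IFN-gamma/LPS array 2). Rfc1 fell from 8.40 and 8.33 to 6.29 and 6.28 (-2.08 ± 0.13), Rrm1 by 2.03 ± 0.12 and the helicase subunit genes Mcm4 (-1.52 ± 0.11) and Mcm7 (-1.37 ± 0.10) by less, while Rfc3 rose from 7.97 and 7.86 to 9.02 and 8.79 (0.99 ± 0.13). Of 29 cyclin, CDK and growth-arrest genes 15 fell and 11 rose, which quantile normalization changed to 12 and 11. The cyclin gene Ccnd2 rose from 7.56 and 7.40 to 12.32 and 12.34 (4.85 ± 0.09) and Gadd45b from 8.09 and 7.97 to 11.92 and 11.99 (3.93 ± 0.08), whereas Cdk4 (-1.83 ± 0.07) and Cdk2 (-1.80 ± 0.13) fell. The growth-restraining Pdcd4 (-3.59 ± 0.10), Trp53inp1 (-3.55 ± 0.09) and Cdkn2c (-1.83 ± 0.13) fell too. Among histone and DNA modifying enzymes 33 of 57 fell and 15 rose. Kdm6b, the demethylase that removes the repressive mark on lysine 27 of histone H3, rose from 7.11 and 7.09 to 11.36 and 11.29 (4.23 ± 0.12), and Setdb2 from 6.91 and 6.96 to 9.93 and 10.01 (3.04 ± 0.13). The class II deacetylase genes Hdac5 (9.25 and 9.22 to 6.71 and 6.96, -2.40 ± 0.12) and Hdac4 (-1.64 ± 0.12), the DNA methyltransferase gene Dnmt1 (-2.24 ± 0.10) and Kdm2b (-1.88 ± 0.10) fell. Of 276 zinc finger genes with 3-digit Zfp numbers 151 fell and 24 rose, which quantile normalization changed to 127 and 44.

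Surface receptor genes moved in both directions, in shares that varied by family. Among 36 C-type lectin and scavenger receptors 14 rose and 16 fell. Olr1, a receptor for oxidised lipoprotein, rose from 4.87 and 4.78 to 11.30 and 11.26 (6.46 ± 0.10) and Clec4e, Mincle, from 7.54 and 7.67 to 12.12 and 12.08 (4.50 ± 0.13). Stab1 (-2.67 ± 0.08), Clec4a3 (-2.0 ± 0.09) and Clec10a (-1.77 ± 0.15) fell. In the TREM, CD300 and Siglec families 7 of 24 rose (4 without IFN-gamma/LPS array 1, and 4 without untreated array 2) and 9 fell. Cd300lb fell from 10.60 and 10.49 to 7.13 and 7.07 (-3.45 ± 0.08), and Cd300a (-2.96 ± 0.10) and Trem2 (-0.82 ± 0.10) fell, while Treml2 rose from 6.23 and 5.84 to 8.10 and 8.22 (2.13 ± 0.13). Of 11 genes in the Fc receptor list 6 rose (3 after quantile normalization) and 2 fell, with Fcgr4 (2.09 ± 0.06) and Fcgr1 (1.44 ± 0.06) among the rises. Of 13 purinergic and adenosine receptors 5 rose and 3 fell, with P2ry13 up from 7.24 and 7.24 to 11.18 and 11.23 (3.97 ± 0.09) and P2ry6, the uracil nucleotide receptor linked to phagocytosis, down by 1.29 ± 0.06. Of 26 integrins 11 rose (7 without IFN-gamma/LPS array 2, and 7 without untreated array 1) and 5 fell. The LFA-1 alpha chain gene Itgal (2.94 ± 0.09), Itgb8 (2.68 ± 0.12), which releases active TGF-beta, and the fibronectin receptor chain gene Itga5 (2.36 ± 0.08) rose, and Itga6 (-2.58 ± 0.12) and Itgb5 (-2.26 ± 0.08) fell. Of 59 genes for phosphodiesterases, adenylate cyclases, RGS proteins and their partners 13 rose (8 without untreated array 1) and 17 fell, shares of 22.0% and 28.8% beside 23.6% and 28.4% of all genes. The cyclases Adcy7 (10.20 and 10.23 to 7.69 and 7.57, -2.59 ± 0.10) and Adcy9 (-2.47 ± 0.10), the kinase subunit Prkar2a (-2.52 ± 0.15) and the phosphodiesterase Pde3b (-3.66 ± 0.10) fell, and Pde4b, the LPS-induced phosphodiesterase, rose from 7.96 and 7.78 to 9.87 and 9.86 (2.00 ± 0.09).

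Complement and matrix genes moved both ways. Of 18 complement genes 6 rose and 8 fell. Cfb rose from 6.81 and 6.70 to 10.38 and 10.40 (3.64 ± 0.10), with Serping1 (2.31 ± 0.15), C1ra (2.04 ± 0.14) and C1s1 (1.04 ± 0.16), while C1qa (-0.72 ± 0.08) and Cfp (-0.52 ± 0.06), the properdin gene, fell. Of 26 metalloproteinases and their inhibitors 12 rose and 5 fell (3 after quantile normalization). Mmp13 rose from 7.50 and 7.50 to 13.19 and 13.10 (5.65 ± 0.09), Mmp25 from 5.25 and 5.48 to 10.42 and 10.57 (5.13 ± 0.16) and Mmp14 by 3.25 ± 0.10, with the inhibitor gene Timp1 (3.07 ± 0.11), while Timp2 fell from 11.38 and 11.30 to 9.45 and 9.66 (-1.79 ± 0.08). Because the series concerns macrophages and myelin repair, factors tied in general to oligodendrocyte growth or remyelination were also listed. Of 23 such genes 11 rose and 7 fell. The endothelin gene Edn1 rose from 5.32 and 5.50 to 10.90 and 10.98 (5.53 ± 0.09), the activin subunit gene Inhba by 3.80 ± 0.11, neuregulin Nrg1 by 2.11 ± 0.12 and Hbegf by 2.05 ± 0.09. Gas6, the ligand of phagocytic TAM receptors (11.26 and 11.12 to 9.24 and 9.35, -1.90 ± 0.09), Hgf (-1.65 ± 0.10), Tgfb1 (-0.88 ± 0.07) and Igf1 (-0.62 ± 0.07) fell.

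The direct comparison with LPS, IL-4 and IL-13 shows where the response differed from that to another mixture with LPS. In limma 1519 genes were higher under IFN-gamma/LPS, 7.62% of those tested, and 2407 were lower, 12.1%, together 19.7%. Without IFN-gamma/LPS array 1 the lower genes numbered 1558. At 2-fold or more the numbers were 327 (1.64%) and 334 (1.68%). The mixtures differ in 3 agents, IFN-gamma, IL-4 and IL-13, whose parts cannot be told apart. Il12b read 12.29 and 12.31 under IFN-gamma/LPS and 6.49 and 6.59 under LPS/IL-4/IL-13, a difference of 5.76 ± 0.10, the largest excess among genes other than predicted ones. Its untreated level was 5.30 and 5.35. Cytip, a regulator of cell adhesion, read 10.72 and 10.80 against 6.73 and 6.09 (4.35 ± 0.17), with untreated cells between them at 9.10 and 8.98. Dnase1l3, a secreted DNase, read 9.16 and 9.35 against 5.75 and 5.81 (3.48 ± 0.11), and Fst, the activin inhibitor follistatin, 10.36 and 10.50 against 7.18 and 7.32 (3.18 ± 0.10). Sele, the adhesion molecule E-selectin (3.12 ± 0.13), the receptor genes Gpr18 (3.09 ± 0.11) and P2ry13 (2.78 ± 0.09) and the T cell ligands Tnfsf4 (2.72 ± 0.15) and Tnfsf15 (2.64 ± 0.12) were also higher. Vsir, the checkpoint gene VISTA, fell by 0.84 ± 0.07 from untreated but stood 2.77 ± 0.07 above the other LPS mixture.

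Genes lower than under the other LPS mixture included several with known ties to IL-4. Arg1, the arginase that competes with nitric oxide synthase, read 5.37 and 5.45 against 10.72 and 10.38 (-5.14 ± 0.12), and untreated cells 5.0 and 5.14. The IL-10 family gene Il19 read 6.17 and 6.07 against 10.37 and 10.24 (-4.19 ± 0.13), and the PD-L2 gene Pdcd1lg2 7.05 and 7.08 against 10.63 and 10.61 (-3.56 ± 0.11), although the latter was 2.23 ± 0.11 above untreated. Il6ra, Casp6 and Hip1 read 7.63 and 7.73, 7.06 and 7.33 and 7.24 and 7.18 under IFN-gamma/LPS, below both their untreated values (10.60 and 10.52, 9.57 and 9.66 and 9.66 and 9.53) and those under LPS/IL-4/IL-13 (10.76 and 10.46, 10.52 and 10.60 and 10.73 and 10.53). The differences from the latter were -2.93 ± 0.10, -3.37 ± 0.10 and -3.42 ± 0.09. In the same contrast Myc differed by -3.15 ± 0.11, Flt1, a VEGF receptor, by -3.26 ± 0.12, and Hbegf by -3.19 ± 0.09.

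Read by list, the share of members that differed between the mixtures varied. Of the 11 guanylate-binding proteins and immunity-related GTPases 9 were higher under IFN-gamma/LPS, with a median difference of 0.66 and Gbp4 at 1.84 ± 0.15. Of the 42 antiviral effectors 5 were higher (2 without either IFN-gamma/LPS array), none was lower (1 after quantile normalization) and 37 did not pass, with a median of 0.06. Mx1 differed by 0.12 ± 0.11, adjusted p = 0.619 and Rsad2 by -0.01 ± 0.10, adjusted p = 0.974. Failing the test does not show that the levels were equal. TNF superfamily ligands were higher in 6 of 15 cases, and CC chemokines lower in 9 of 18, with Ccl24 at -3.13 ± 0.11 and Ccl2 at -1.04 ± 0.13. Of 8 SOCS genes 5 were lower and 1 was higher. Ribosome biogenesis genes were lower in 18 of 33 cases (9 without IFN-gamma/LPS array 1), and histone and DNA modifying enzymes in 21 of 57 (11 without IFN-gamma/LPS array 1, 13 without array 2). Of 33 sugar genes 9 were higher and 3 lower.

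**Figure D5:**
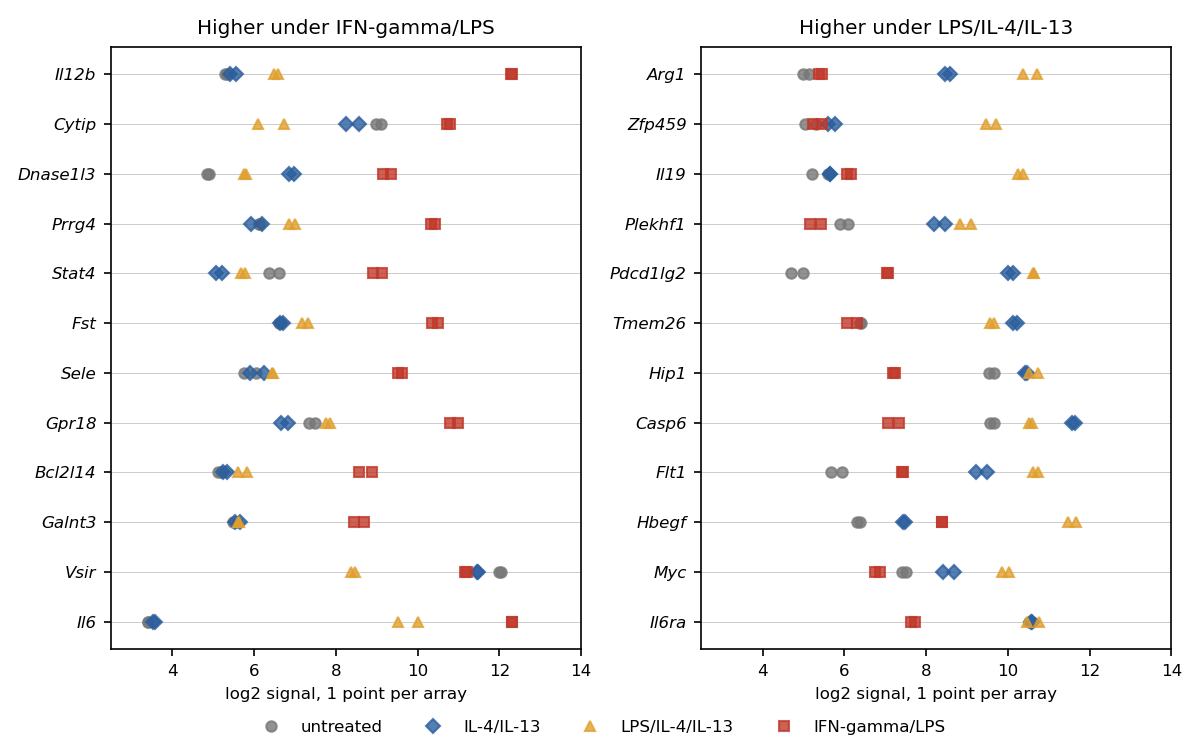
Log2 signal of 12 genes higher (left) and 12 genes lower (right) under IFN-gamma/LPS than under LPS/IL-4/IL-13, 1 point per array for all 4 groups of 2 arrays. For Il12b the 2 IFN-gamma/LPS arrays stand apart from the other 6 arrays, and for Arg1 they lie beside the untreated ones.

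Markers of other cell types gave the following values beside these results. Over 10 dendritic cell markers the mean log2 signal was 5.59 and 5.68 on the untreated and 6.77 and 6.78 on the treated arrays, and 7 of the 10 rose and none fell. Xcr1, a defining marker of type 1 dendritic cells, read 5.58 and 5.66 before and 7.72 and 8.02 after treatment (2.25 ± 0.14), and Siglech, of plasmacytoid dendritic cells, 5.81 and 5.84 before and 6.02 and 5.80 after (0.09 ± 0.11, adjusted p = 0.545). Over 8 endothelial markers the means were 5.63 and 5.71 against 6.29 and 6.28. Of these 8 genes 4 rose (2 after quantile normalization) and 1 fell (0 after quantile normalization), with a median of 0.32. Kdr, up by 3.75 ± 0.14, was the only 1 of them to rise at least 2-fold. Means of neutrophil markers were 6.34 and 6.35 against 6.29 and 6.23, of T and NK cell markers 4.92 and 4.96 against 5.11 and 5.15, and of B lymphocyte markers 5.43 and 5.48 against 5.40 and 5.48. Mast cell and basophil markers stood at 5.29 and 5.28 against 5.45 and 5.41, erythroid ones at 5.59 and 5.53 against 5.67 and 5.66, and fibroblast ones at 6.75 and 6.77 against 6.88 and 6.96. The arrays carry no detection calls, so a low value does not show that a marker is absent, and the part of other cells in the dendritic and endothelial shifts was not tested.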

How the data were processed

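RNA of 8 macrophage samples was hybridised to MoGene-1_0-st-v1 arrays, and per the labels' protocols the RNA had an integrity number above 9. The authors deposited 1 value table with 35556 probe sets and a column per array. The deposited values are taken as log2 signals, since they run from 1.46 to 13.71 with 2 decimals, although the labels name a mas5 signal. How the authors made these log2 values (log base, normalization, summary of probes) was not given in the sources used here. Probe sets were named through GEO's platform annotation: 21789 had 1 gene symbol, 1621 several and 12146 none, and 19938 genes were tested.

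limma 3.58.1 in R 4.3.3 was fitted to all 8 arrays in 4 groups, with moderated variances and a mean-variance trend (4 residual and 7.55 prior degrees of freedom). Benjamini-Hochberg adjustment ran over the 19938 genes at 0.05, with no filter on signal. The contrasts were IFN-gamma/LPS minus untreated and minus LPS/IL-4/IL-13. The procedure was tested on simulated data with far fewer changed genes than were called here and no shift shared across genes. That test therefore does not measure the error of the counts above. With 2 arrays a group, the number of arrays limits the precision. Replicate numbers were not treated as pairs. Deviations of same-numbered arrays correlated at -0.15 and -0.36 between the groups compared. These values cannot show whether such arrays shared a culture or animal, so pairing is unknown.

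The members and gene lists were chosen with earlier results of these data known. A rule set which genes could be named, and the text names only part of them. The rule took the 25 highest and 25 lowest called genes whose groups did not overlap, predicted genes aside. It also took the 20 highest and 20 lowest of the second contrast. From each list it took up to 6 leading rises, 6 falls and 4 uncalled genes, and all members of lists of 25 or fewer. Members of the longest runs and a set of genes of general interest were added. Which of these genes the text names was a further choice, and few uncalled genes are among them. Ifih1, Dhx58, Ddx58, Rsad2, Tfrc and Casp12 were named after their values were seen. Start-site windows and gene positions come from RefSeq tables of GRCm38.p6. Alternatives were quantile normalization, median centring, leaving out genes under the 40th percentile of signal, other variance models, only the 2 groups compared, a replicate block, averaging the probe sets of a gene, a 2-fold minimum and leaving out each array.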

Additional observations from a re-analysis of the deposited data

Results flagged for a closer look

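Signal outside the named genes changed as well. Of 1621 probe sets with several gene symbols, 30 rose at least 4-fold, and of 12146 with no symbol in the annotation used, 127 did. Probe set 10398039, with no symbol, read 4.51 and 4.69 in untreated and 12.11 on both treated arrays, a log2 fold change of 7.51. Probe set 10531994, which matches a group of guanylate-binding protein genes (Gbp4 and Gbp6 among them), rose by 5.76, and 10496592 (Gbp2 and Gbp2b) by 5.73. Probe set 10385518, for the interferon-induced GTPase genes Tgtp1 and Tgtp2, read 8.40 and 8.20 against 12.78 and 12.77, a rise of 4.48. The unnamed probe sets 10521678, 10608681, 10406852 and 10466314 rose by 5.75, 5.12, 4.83 and 4.74. These probe sets entered no count above.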

How the results depend on the processing

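The number of genes changed against untreated (10357) stayed within 1.5 times under each alternative except the 2-fold minimum, which left 1168 higher, 2233 lower and 3401 in all. Leaving out each array in turn gave 2936 to 3861 higher, 4894 to 5381 lower and 7830 to 9216 in all. Against LPS/IL-4/IL-13 the 2-fold minimum left 327 higher, 334 lower and 661 in all. A fit of only those arrays gave 1488 lower and 2603 in all, and leaving out each array gave 1183 to 1516 higher, 1558 to 2884 lower and 2741 to 4384 in all. The replicate block gave 10432 and 3833 genes, and of the genes named it ended the calls of Il23a against untreated and Gbp5 against LPS/IL-4/IL-13. With the IFN-gamma/LPS numbers crossed, an alternative chosen after seeing the data, the counts were 10813 and 4404. Of 386 genes named for the first comparison 380 kept their call under every alternative run. The named genes were picked largely for their call and the size of their change. The share that kept its call therefore does not describe all genes. Ciita was not called but reversed to 0.31 after quantile normalization. The others were Arg1, Il23a, Irgc1, Myc and Nfkbid; Arg1 (0.17) and Myc (-0.31) lost their call after quantile normalization, and Arg1 also lost it without any 1 of the 4 arrays, at 0.27 to 0.41. The cause was not tested. Quantile normalization turned the list medians of ribosome biogenesis, NADPH oxidase, prostaglandin and other Toll-like receptor genes. The table gives no detection calls, so no probe set could be placed above or below background.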
